A study of Mus musculus with 50 samples.

Results

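Integrin and laminin genes were taken by symbol from the table of 23880 genes: integrin alpha chains named Itga with a number or 1 of the letters d, e, l, m, v and x, integrin beta chains named Itgb with a number, and laminin chains named Lama, Lamb or Lamc with a number. The rule matched 38 rows with 37 symbols, because Itgam stands beside 2 gene identifiers. Of these rows, 27 reached 1 TPM (the transcript abundance unit scaled by transcript length and library size) in 8 or more of the 50 mice, 19 of them integrins and 8 laminins, and are described here except for 1 that is only counted. The other 11 rows stayed below that level. The samples were gastrocnemius muscles of male wild-type C57BL/6JRj mice, with 8 animals per age for 8, 18, 22 and 24 months and 9 per age for 26 and 28 months, and each mouse gave 1 library. All mice were caged singly and fed the purified diet AIN93M. The mice of 8 and 18 months were adapted to that diet for some time before their endpoint, whereas those of 22 to 28 months had eaten it from about 18 months on, so that age and diet history cannot be told apart where 22 to 28 months are compared with 8 months. The comparison of 18 with 8 months falls within the first schedule, and those of 28 with 22 months and of 26 with 24 months fall within the second. Animals with overt illness or tumors had been left out, so the oldest groups are survivors without visible disease.

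Integrins are surface receptors made of an alpha and a beta chain, and they tie the cytoskeleton to the matrix or to other cells. Laminins are cross-shaped proteins of an alpha, a beta and a gamma chain that form the sheet of the basement membrane. In skeletal muscle each fibre is wrapped in a basement membrane whose main laminin holds the chains encoded by Lama2, Lamb1 and Lamc1, and the fibre is anchored to it by the integrin of Itga7 and Itgb1 and by dystroglycan. Loss of Lama2 or Itga7 causes inherited muscle disease. Vessels, nerves, synapses and leukocytes use other members of both families, and whole muscle holds RNA of all of them.

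In bulk RNA fewer cells of a type and less RNA per cell cannot be told apart, so marker genes of the cell types in muscle were summed as TPM for each mouse. Total counts lay between 13607229 and 21267375. The 7 fibre markers (among them Acta1, Ckm and Myh4) summed to between 114041 and 188316 TPM, so the defining genes of the labelled tissue were abundant in every mouse. Replicate 2 of 28 months stood apart in fibre and macrophage markers. It had the lowest fibre marker sum of the 50 mice and the highest macrophage marker sum, 626 TPM against a median of 317 TPM at its age. Its neutrophil marker sum of 249 TPM (median 25.9 TPM at its age) was near those of replicate 2 of 24 months (239 TPM) and replicate 7 of 26 months (233 TPM). Lymphocyte markers reached at most 2.82 TPM in any mouse and none passed the count filter. Results that rest on replicate 2 of 28 months are given with and without it.

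Single mice were high or low for many of the 27 genes at once. At 24 months, replicate 2 had the highest TPM of its age for 20 of the 27 genes, and at 8 months replicate 8 had it for 18. At 18 months, replicate 2 had the lowest TPM of its age for 22 of the 27. At 8 months replicate 3 was lowest for 15. These mice were also at the ends of the marker sums of several cell types at their age. Replicate 2 of 24 months had the highest endothelial (154 TPM), fibroblast (836 TPM), smooth muscle and pericyte (369 TPM), satellite cell and neutrophil sums and the lowest fibre sum. Replicate 8 of 8 months had the highest endothelial (156 TPM), Schwann cell (231 TPM), smooth muscle and pericyte (427 TPM), lymphocyte and epithelial sums and the lowest neutrophil sum. Replicate 2 of 18 months had the lowest endothelial (59.4 TPM), fibroblast (599 TPM), smooth muscle and pericyte (212 TPM), satellite cell, macrophage, neutrophil and lymphocyte sums and the highest fibre sum. Replicate 3 of 8 months had the lowest endothelial (86.1 TPM), fibroblast (712 TPM), Schwann cell (40.9 TPM), epithelial and fibre sums. The part of cell content in the integrin and laminin levels was not tested.

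At 8 months, Itgb1, the beta chain that most matrix-binding integrins share, had the highest level of the family, with a median of 183 TPM (range 158 to 206 TPM). Itgb5, which pairs with the alphaV chain and binds vitronectin, followed with a median of 90.2 TPM (85.1 to 98.8 TPM). Lamb2, a laminin beta chain enriched at the synapse, had a median of 57.65 TPM, and Itga7 had 55.7 TPM. The ranges of Itgb1 and Itgb5 overlapped neither each other nor any gene below them, whereas Lamb2 and Itga7 overlapped. The lowest mouse for Itga7 was just above the highest for Lamc1. Lamc1 (33.8 TPM), Itga6 (27.7 TPM), Lamb1 (16.6 TPM), Itgb6 (14.3 TPM), Lama4 (14.15 TPM), Itgav (11.9 TPM) and Lama2 (11.2 TPM) came next, and from Lamc1 downward each gene overlapped with the next in order. Leukocyte integrins were low, with medians of 2.77 TPM for Itgb2, 1.84 TPM for Itgam and 1.395 TPM for Itgb7. The lowest medians among the genes named here belonged to the platelet integrin chains Itga2b (0.6845 TPM) and Itgb3 (0.645 TPM).

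**Figure D1:**
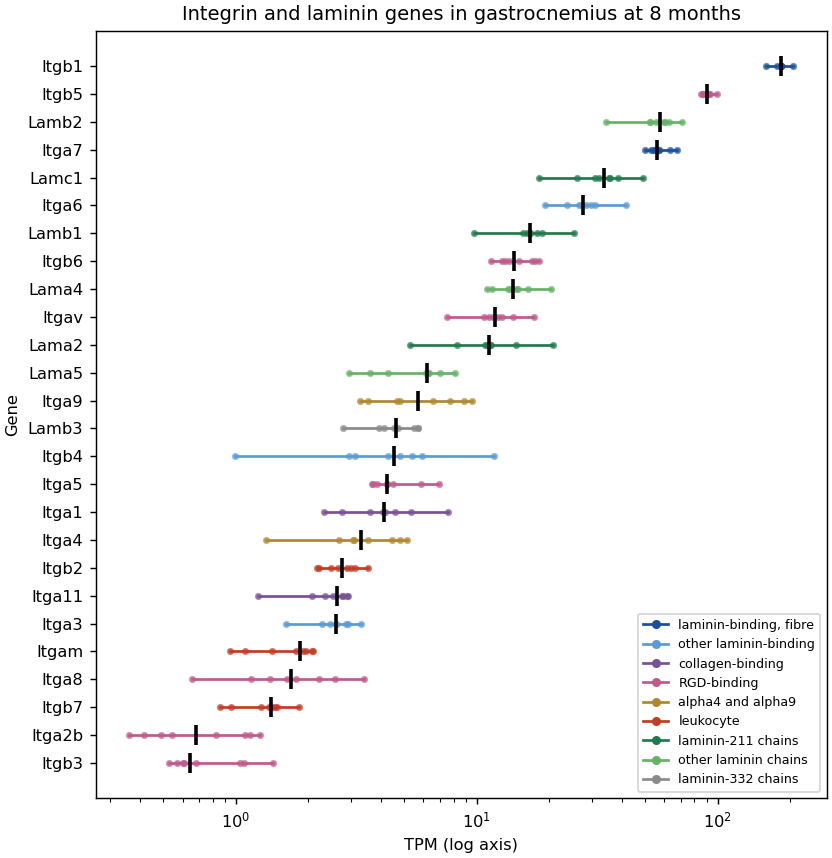
Levels of 26 of the 27 genes in the 8 mice of 8 months, as TPM on a log axis, with genes ordered by their median. Points are mice, horizontal lines run from the lowest to the highest mouse, black ticks mark the median, and colors give the role group. Itgb1 and Itgb5 lie clear of all other genes, with medians of 183 and 90.2 TPM, and leukocyte integrins lie at or below 3.52 TPM in every mouse.

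Levels per length rest on the transcript models that the reads were assigned to. The length implied by the ratio of counts to TPM was compared with the longest coding transcript in GENCODE vM21. For Lama5, Itga1, Itga5 and Itga11 the implied length was 100% of it after rounding. For Lama2 the implied length was 3040 of 9614 bases (31.6%), for Lamb3 27%, for Itga9 49.2%, for Itga6 50.1% and for Itgb4 455 of 6208 bases (7.33%). Neither Lama2 nor Itgb4 has a coding transcript of support level 1 to 3 in GENCODE vM21, and the position of such genes in the order of levels is uncertain. Itgb4 was also counted on few reads, with a median of 16 counts per library. Fold changes of 1 gene between ages are made within the same models, but for some genes they differed between TPM and CPM (counts scaled by library size). Among these genes were Lama2, Itga2b and Lamb3. Between 8 and 28 months the mean of Lama2 went from 11.69 to 14.91 TPM and from 21.85 to 23.3 CPM. That of Itga2b went from 0.767 to 0.9852 TPM and from 0.8127 to 1.323 CPM between the same ages. Between 8 and 22 months the mean of Lamb3 went from 4.624 to 5.692 TPM and from 4.001 to 3.914 CPM. The cause of these differences was not tested.

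Between 28 and 8 months, 7 of the 27 genes passed FDR 0.01 in the quasi-likelihood test of edgeR. This was 25.9% of them, against a background of 39.6% of the 12586 genes tested. Itga7, Itgam and Itgb2 rose (background of higher genes 21.0%), and Itga11, Itgb5, Lamb1 and Lamc1 fell (background of lower genes 18.7%). The median log2 fold change of the 27 genes was -0.06, beside 0.01 over all genes tested, and the median size of the change was 0.25, beside 0.29 over all genes. Without replicate 2 of 28 months 7 genes were also called, but 5 of these were lower: Itga7 and Itgb2 were still called higher, Itgam and Lamc1 were no longer called, and Itgb1 and Itgb7 were called lower. Without that mouse 34.5% of the genes tested were called.

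At 26 against 8 months the median log2 fold change of the 27 genes was -0.12 (-0.00 over all genes tested), and the median size of the change was 0.24 (0.21 over all genes). Here 3 of the 27 genes passed (background 18.4%), and Itga6, Lama4 and Lamb1 fell (background of lower genes 8.54%). This count dropped to 1, Lamb1, when replicate 8 of 8 months, replicate 1 of 26 months or replicate 9 of 26 months was left out. No gene of the 27 passed at 24 against 8 months (0.612% of all genes tested passed). In edgeR 6 of the 27 had an unadjusted p below 0.05, beside 2422 of all 12586 genes tested. None passed at 22 against 8 months (0.0397% of all genes tested), where 4 had such an unadjusted p, beside 1134 of 12586. At 18 against 8 months none passed (0.0715% of all genes tested), and 2 had such an unadjusted p, beside 460 of 12586. DESeq2 and limma called none in these 3 comparisons either. The 5 comparisons with 8 months share the same 8 mice.

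Within 1 diet schedule, 4 of the 27 genes passed between 28 and 22 months (background 27.7%). Lama5 and Itga5 rose (background of higher genes 16.2%), and Itgb5 and Itgb7 fell (background of lower genes 11.5%). Without replicate 8 of 22 months or without replicate 9 of 28 months 2 of the 4 calls were left. Between 26 and 24 months none of the 27 passed in edgeR, DESeq2 or limma (0% of all genes tested passed in edgeR). In edgeR 5 of the 27 had an unadjusted p below 0.05, beside 2202 of all 12586 genes tested.

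**Figure D2:**
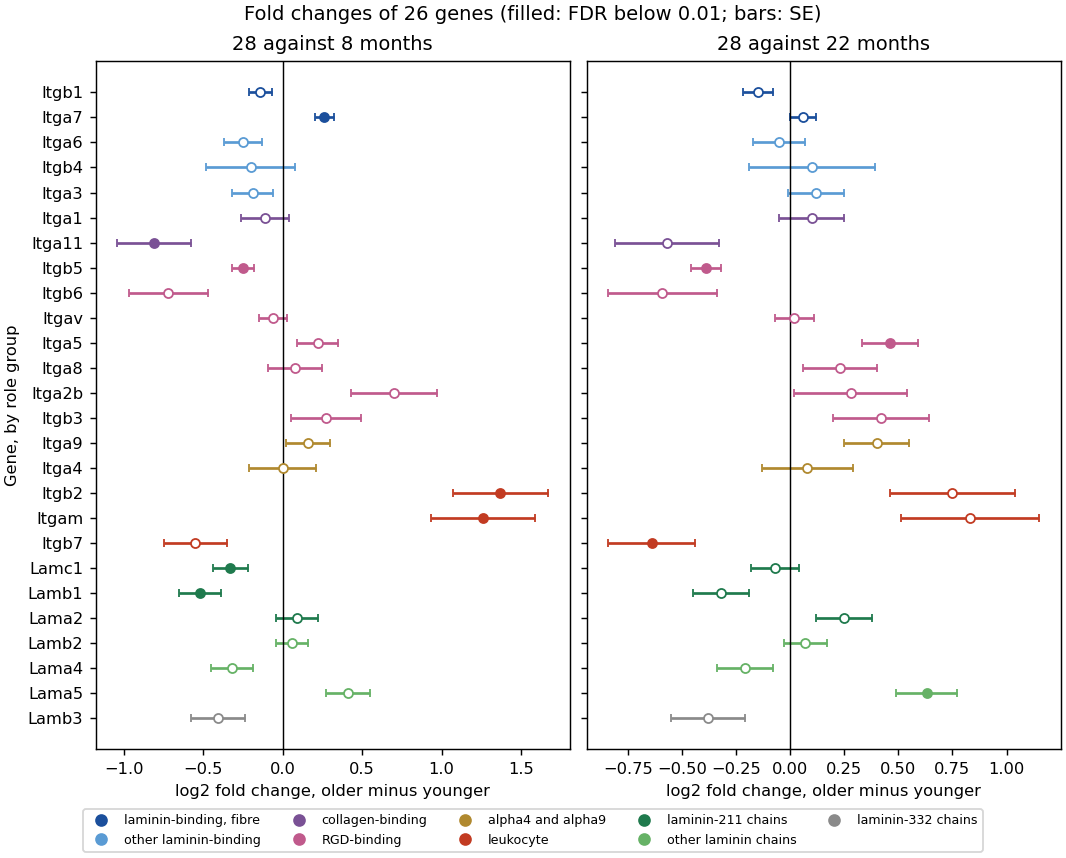
Fold changes of 26 of the 27 genes as log2 of older over younger age, from edgeR, for 28 against 8 months (left) and 28 against 22 months (right), with genes grouped by role. Points are estimates, bars are standard errors, and filled points passed FDR 0.01. Itgb2 (1.37) and Itgam (1.26) have the largest increases on the left, and Itgb5 is filled on both sides.

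Itga7 encodes the laminin-binding alpha chain of fibres and satellite cells (chr10:128933818-128958282, plus strand, GRCm38). At 8 months its level was 49.98 TPM in the lowest mouse, 55.7 TPM at the median and 67.4 TPM in the highest. At 28 months these values were 64.0, 70.5 and 81.2 TPM, and 7 of 9 mice lay above every mouse of 8 months. The medians between were 62.7 TPM at 18 months, 65.1 TPM at 22 months, 67.9 TPM at 24 months and 63.25 TPM at 26 months. In counts Itga7 rose by 19.9% from 8 to 28 months (log2 fold change 0.26 ± 0.06 SE, FDR 0.000527). With any 1 mouse left out, the change stayed between 0.23 and 0.29 and passed in 17 of 17 fits. No other age passed against 8 months, and the difference between 28 and 22 months was 0.06 ± 0.06 (FDR 0.408). Of the denervation markers, 5 of 5 tested rose between 28 and 8 months (background of higher genes 21.0%). Between 22 and 8 months 0 of these 5 were called, and between 28 and 22 months 5 rose (background of higher genes 16.2%). Between 28 and 8 months 2 of 4 satellite cell markers tested rose, Vcam1 and Cdh15 (0.57 for Cdh15 on the log2 scale, FDR 0.000179, background of higher genes 21.0%). Vcam1 is also counted below as an endothelial ligand of leukocyte integrins, so that it marks no single cell type here. Pax7, the defining transcription factor of satellite cells, did not pass (-0.67, FDR 0.0262). The part of denervation and satellite cells in the level of Itga7 was not tested.

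The partner of Itga7 in fibres, Itgb1 (chr8:128685654-128733200, plus strand), had a median of 183 TPM at 8 months (range 158 to 206 TPM) and of 164 TPM at 28 months (152 to 264 TPM). The highest value belonged to replicate 2 of 28 months, and the next mouse had 183 TPM. The difference between 28 and 8 months was -0.14 ± 0.07 on the log2 scale and did not pass (FDR 0.0637). Without that mouse it was -0.20 and passed (FDR 0.00462), and it also passed with upper-quartile scaling (-0.20, FDR 0.0071). Itga7 took a median of 46.3% of the summed TPM of all integrin alpha rows at 8 months (range 34.0 to 49.8%) and 51.3% at 28 months (37.3 to 54.4%), and these ranges overlapped.

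**Figure D3:**
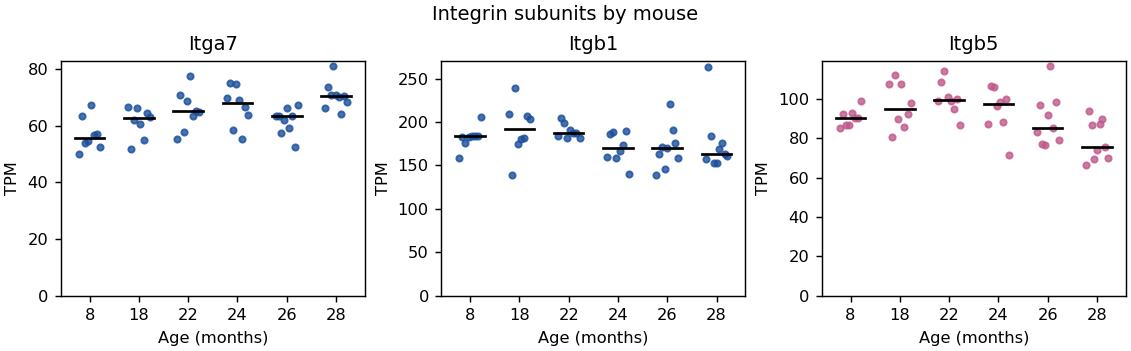
TPM of Itga7, Itgb1 and Itgb5 in each of the 50 mice by age in months, with axes from 0. Points are mice and black lines are medians. The median of Itga7 is 55.7 TPM at 8 months and 70.5 TPM at 28 months, that of Itgb5 is 90.2 and 75.6 TPM, and 1 mouse of 28 months has 264 TPM of Itgb1.

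Among the integrins that bind the RGD motif of matrix proteins, Itgb5 (chr16:33829665-33949338, plus strand) was lower at 28 months. Its values were 85.1, 90.2 and 98.8 TPM (lowest, median and highest) at 8 months, 86.4, 99.4 and 114 TPM at 22 months, and 66.6, 75.6 and 93.6 TPM at 28 months. At 28 months 5 of 9 mice lay below every mouse of 8 months. In counts it fell by 16.2% between 8 and 28 months (log2 fold change -0.25 ± 0.07, FDR 0.00172). Between 22 and 28 months the change was -0.39 ± 0.07 (FDR 4.19e-05), the smallest FDR of the 27 genes in that comparison. Both calls held with each mouse left out in turn. On log2(TPM + 1) with limma, the change from 8 to 28 months was -0.20 and did not pass (FDR 0.0357).

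Itgav, the alpha partner of Itgb5, had medians of 11.9 TPM at 8 months and 12.2 TPM at 28 months (ranges 7.51 to 17.3 and 9.165 to 16.85 TPM). Its log2 difference of -0.06 ± 0.09 did not pass (FDR 0.599), and it was 0.07 on log2 TPM. Itgb6, which also pairs with alphaV and releases TGF-beta from its latent complex, had a wide range at 28 months, from 4.31 to 20.02 TPM with a median of 7.98 TPM, beside 11.4 to 18.0 TPM with a median of 14.3 TPM at 8 months. At 28 months 6 of 9 mice lay below every mouse of 8 months and 1 lay above all of them. The log2 difference was -0.72 ± 0.25 and missed the threshold (FDR 0.0138). It passed without replicate 3 (-0.93, FDR 0.00121), replicate 4 (-0.86, FDR 0.00356) or replicate 6 (-0.79, FDR 0.00896) of 28 months.

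Itga5, the alpha chain of the main fibronectin receptor, differed between the late ages. Its median was 4.06 TPM at 22 months (range 2.98 to 5.05 TPM) and 5.88 TPM at 28 months (3.90 to 6.91 TPM), and the ranges overlapped. It rose by 0.46 ± 0.13 on the log2 scale from 22 to 28 months (FDR 0.00481). This call was lost in 6 of 17 fits with 1 mouse left out, including the fit without replicate 2 of 28 months (0.44, FDR 0.0111). Against 8 months, where its median was 4.24 TPM, the difference was 0.22 (FDR 0.151). Itga8, a receptor of mesenchymal cells, and the platelet chains Itga2b and Itgb3 did not pass at 28 against 8 months (log2 differences 0.08, 0.70 and 0.27, FDR 0.692, 0.0264 and 0.306). In the alternative fits the difference of Itga2b lay between 0.17 and 0.78. Of the 4 platelet markers, Pf4 was the one that passed the count filter, and its difference was -0.13 (FDR 0.493).

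Itga11, a collagen receptor of fibroblasts (chr9:62677826-62783982, plus strand), had 1.23, 2.63 and 2.93 TPM at 8 months and 0.228, 1.47 and 2.32 TPM at 28 months. At 28 months 3 of 9 mice lay below every mouse of 8 months and none above. It fell by 43.0% in counts (log2 fold change -0.81 ± 0.23, FDR 0.00347), the largest decrease among the called genes. The change lay between -0.93 and -0.66 with 1 mouse left out and passed in every such fit, and it was -0.81 without passing when only the mice of 8 and 28 months were fitted (FDR 0.0294). Fibroblast markers moved in the same direction. Col1a1 (-2.08), Col3a1 (-2.28), Pi16 (-1.49) and Lum (-0.89) fell between 8 and 28 months, 4 of 6 markers (background of lower genes 18.7%). Pdgfra (-0.30, FDR 0.0258) and Dcn (-0.20, FDR 0.0467) did not pass. The summed fibroblast marker level had a median of 916 TPM at 8 months (range 712 to 1010 TPM) and 709 TPM at 28 months (580 to 803 TPM). Dcn made up most of this sum, with medians of 685 TPM at 8 months and 603 TPM at 28 months. The part of fibroblasts in the level of Itga11 was not tested. Itga1, which binds basement membrane collagen, had medians of 4.11 and 3.93 TPM and a log2 difference of -0.11 ± 0.15 (FDR 0.548).

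Of the other laminin-binding integrins, Itga6, found on vessels, Schwann cells and satellite cells, was 19.2, 27.7 and 41.5 TPM at 8 months, 16.0, 21.3 and 28.0 TPM at 26 months and 18.1, 22.3 and 34.7 TPM at 28 months. It fell by 0.44 ± 0.12 on the log2 scale between 8 and 26 months (FDR 0.00448), a call lost without replicate 8 of 8 months (-0.36, FDR 0.0145) or replicates 1 or 9 of 26 months (-0.42 and -0.38, FDR 0.0109 and 0.0118), and its difference at 28 months did not pass (-0.25, FDR 0.0697). Itga3 (-0.19, FDR 0.196) and Itgb4 (-0.20, FDR 0.568), the beta chain that pairs with alpha6 in epithelium and nerve sheath, did not pass at 28 months. Without replicate 8 of 8 months the difference of Itgb4 was 0.07. Itga4 and Itga9, which bind VCAM1 and fibronectin or tenascin, had differences of 0.00 ± 0.21 and 0.16 ± 0.14 at 28 months (FDR 0.996 and 0.365). Replicate 2 of 28 months had 10.7 TPM of Itga4 beside a median of 3.45 TPM at its age, and without it the difference was -0.30 (FDR 0.165).

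Of the 3 chains of the fibre laminin, Lamb1 and Lamc1 fell between 8 and 28 months and Lama2 did not pass, and the difference between the chains was not tested. Lamb1 (chr12:31265234-31329644, plus strand) had 9.77, 16.6 and 25.2 TPM at 8 months, and the medians then ran 16.3, 13.5, 14.0, 10.2 and 12.6 TPM at 18, 22, 24, 26 and 28 months. At 28 months its range was 9.90 to 15.3 TPM, within that of 8 months. It fell by 32.8% between 8 and 26 months (log2 fold change -0.57 ± 0.13, FDR 0.000711) and by 30.4% between 8 and 28 months (-0.52 ± 0.13, FDR 0.000594). Both calls held in all 17 fits with 1 mouse left out, and the second was -0.42 without passing on log2(TPM + 1) (FDR 0.0117).

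Lamc1, the gamma chain of most laminins (chr1:153218922-153332786, minus strand), had 18.0, 33.8 and 49.1 TPM at 8 months and 24.4, 26.8 and 33.2 TPM at 28 months. It fell by 0.33 ± 0.11 on the log2 scale (FDR 0.00894), but the call was close to the threshold. It was lost in 14 of 17 fits with 1 mouse left out (highest FDR 0.0356) and on log2(TPM + 1) (-0.22, FDR 0.186).

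Lama2, the alpha chain whose loss causes congenital muscular dystrophy (chr10:26980036-27619758, minus strand), did not pass at any age. Its values were 5.265, 11.2 and 20.75 TPM at 8 months and 10.6, 14.4 and 20.1 TPM at 28 months, and the range of 28 months lay inside that of 8 months. The log2 difference in counts was 0.09 ± 0.13 (FDR 0.556). Its size depended on the scale, since with limma it was 0.38 on log2(TPM + 1) and 0.41 on log2(TPM + 0.1), without passing (lowest FDR 0.0956). Over all 50 mice the range was 4.16 to 23.05 TPM, so that the mice of 8 months alone spanned most of it.

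**Figure D4:**
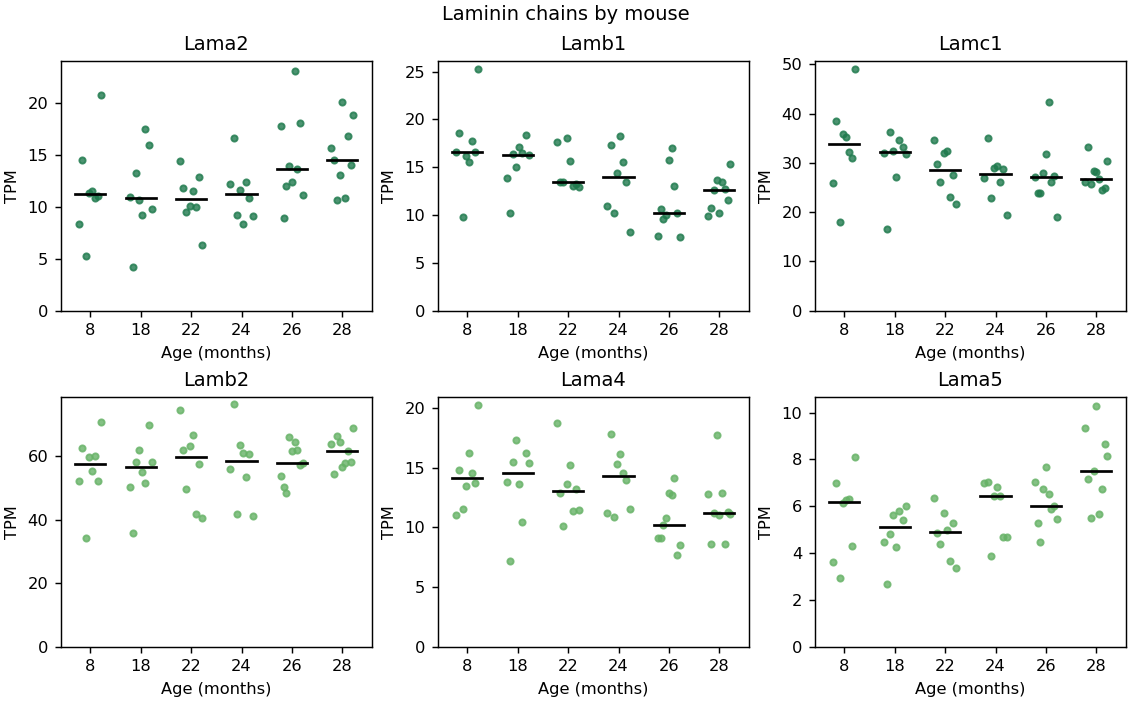
TPM of 6 laminin chains in each of the 50 mice by age in months, with axes from 0. Points are mice and black lines are medians. The median of Lamb1 is 16.6 TPM at 8 months and 10.2 TPM at 26 months, that of Lama5 is 4.92 TPM at 22 months and 7.50 TPM at 28 months, and Lamb2 has medians between 56.6 and 61.8 TPM.

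Of the chains of synapse and vessel, none passed between 28 and 8 months, and each of the vascular chains passed in 1 other comparison. Lamb2 (chr9:108479736-108490530, plus strand) had medians from 56.6 to 61.8 TPM over the 6 ages, and its difference between 28 and 8 months was 0.06 ± 0.10 (FDR 0.625). Its range was 34.3 to 70.8 TPM at 8 months and 54.5 to 69.0 TPM at 28 months. Lama5 (chr2:180176373-180225859, minus strand), an alpha chain of vessels and synapses, had 3.35, 4.92 and 6.36 TPM at 22 months and 5.50, 7.50 and 10.3 TPM at 28 months. It rose by 0.63 ± 0.14 on the log2 scale between these ages (FDR 0.000576) in all 17 fits with 1 mouse left out. Against 8 months the difference was 0.41 ± 0.14 and missed the threshold (FDR 0.0133). It passed at 0.46 to 0.47 without replicate 2 or 8 of 8 months or replicate 3 or 6 of 28 months (FDR 0.00601 to 0.00696), and with all mice in DESeq2 (0.42, FDR 0.00895). Lama4, the other vascular alpha chain (chr10:38965515-39110188, plus strand), had 11.04, 14.15 and 20.3 TPM at 8 months, 7.69, 10.2 and 14.2 TPM at 26 months and 8.575, 11.2 and 17.7 TPM at 28 months. It fell by 0.46 ± 0.13 between 8 and 26 months (FDR 0.00593), a call lost in 6 of 17 fits with 1 mouse left out (highest FDR 0.0172, without replicate 8 of 26 months), and at 28 months the difference was -0.32 (FDR 0.0318). Endothelial markers gave 1 lower gene of 6 tested at 28 against 8 months, Tek (background of lower genes 18.7%). The endothelial sum had medians of 119 and 112 TPM.

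The laminin chains were also expressed as shares of the TPM of their class. Lamb1 took a median of 21.7% of the beta chain TPM at 8 months (range 19.7 to 24.8%), 20.1% at 18 months, 18.9% at 22 months, 17.1% at 24 months, 15.6% at 26 months and 15.8% at 28 months (12.8 to 17.5%). The ranges of 8 and 28 months did not overlap. Lamb2 took 72.0% at 8 months (69.2 to 76.0%) and 79.3% at 28 months (74.0 to 82.5%). Among the alpha chains, Lama4 had a median of 45.9% at 8 months (40.3 to 57.9%) and 32.8% at 28 months (26.3 to 45.5%), Lama2 had 35.8% and 40.7%, and Lama5 had 17.2% and 21.1%. These shares are descriptions without a test, and their size depends on the transcript lengths given above, that of Lama2 in particular. Lamc1 held 93.8% of the gamma chain TPM at 8 months and 93.1% at 28 months. Summed over a class, the medians were 77.75 and 77.5 TPM for beta chains and 31.8 and 34.4 TPM for alpha chains at 8 and 28 months, with overlapping ranges.

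Lamb3, a beta chain of epithelial laminins, was low. It had a median of 4.63 TPM at 8 months and 3.68 TPM at 28 months, and its difference of -0.41 ± 0.17 missed the threshold (FDR 0.0369). It passed at -0.52 without replicate 3 or replicate 6 of 28 months (FDR 0.00863 and 0.00893). The epithelial markers Krt5 and Krt14 had a TPM of 0 in 45 of 50 mice and reached 14.6 and 10.9 TPM in the highest mouse. Cdh1, another epithelial marker, was above 0 in every mouse (0.0873 to 1.65 TPM). It did not pass between 28 and 8 months (-0.48, FDR 0.263). Lama3, an alpha chain of epithelial laminins, had at most 1.07 TPM.

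The leukocyte integrins were led by 1 mouse. Itgb2, the beta chain common to the main leukocyte integrins (chr10:77530252-77565708, plus strand), had 2.18, 2.77 and 3.52 TPM at 8 months and 3.22, 4.59 and 34.1 TPM at 28 months. The highest value was that of replicate 2, and the next mouse had 6.15 TPM. At 28 months 8 of 9 mice lay above every mouse of 8 months, as did 8 of 8 at 22 months, 7 of 8 at 24 months and 7 of 9 at 26 months. In counts Itgb2 rose 2.58-fold (log2 fold change 1.37 ± 0.30, FDR 0.000169), and without replicate 2 it rose by 0.68 (FDR 0.00314). Differences from 8 months at the ages between were 0.54, 0.62, 0.71 and 0.85 at 18, 22, 24 and 26 months, none of which passed (FDR 1, 0.541, 0.188 and 0.0243).

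Itgam, the CD11b chain of myeloid cells that pairs with Itgb2 (chr7:128062640-128118491, plus strand), had 0.942, 1.84 and 2.10 TPM at 8 months and 1.95, 2.67 and 18.4 TPM at 28 months. The highest mouse was again replicate 2 and the next had 4.50 TPM. At 28 months 7 of 9 mice lay above every mouse of 8 months. Itgam rose 2.39-fold (1.26 ± 0.33, FDR 0.00127), but without replicate 2 the change was 0.62 and did not pass (FDR 0.0395). The second identifier under this symbol is named Gm49368 in GENCODE vM21 and overlaps Itgam on the same strand (chr7:128062683-128128160), so that reads they share were divided between them. It stayed below the level of description and had a log2 difference of 1.25 (FDR 0.00176), and of 0.60 (FDR 0.0582) without replicate 2. Because of the shared reads these values are no separate evidence beside those of Itgam.

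Itgal, the CD11a chain of lymphocytes and other leukocytes, stayed below 1 TPM in 45 mice and had 11.9 TPM in replicate 2 of 28 months. The highest of the other 8 mice of that age had 0.719 TPM. The log2 difference between 28 and 8 months was 2.42 ± 0.54 (FDR 0.000273), and without replicate 2 it was 0.67 and did not pass (FDR 0.101). Itgb7, which pairs with alpha4 and alphaE on lymphocytes, was lower at 28 than at 22 months. Its values were 0.804, 1.32 and 2.32 TPM at 22 months and 0.452, 0.913 and 1.73 TPM at 28 months. It fell by 0.64 ± 0.20 between them (FDR 0.00745), a call lost in 9 of 17 fits with 1 mouse left out, and its difference from 8 months was -0.55 (FDR 0.0158). That difference passed without replicate 2 of 8 months (-0.62, FDR 0.00857), replicate 2 of 28 months (-0.64, FDR 0.00764) or replicate 6 of 28 months (-0.66, FDR 0.00447).

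Some myeloid markers also rose. Between 28 and 8 months 3 of 7 macrophage markers (Csf1r, Mrc1 and Lyz2) and all 3 neutrophil markers tested (S100a8, S100a9 and Csf3r) rose (background of higher genes 21.0%). Without replicate 2 of 28 months 1 and 3 did, and 2235 of all 12567 genes tested rose. The 3 neutrophil markers also rose between 24 and 8 months (0.612% of all genes tested were called), where Itgb2 and Itgam did not pass (FDR 0.188 and 0.409). These 3 markers rose as well between 26 and 8 months (18.4% of all genes tested were called). There Itgb2 and Itgam were nearer the threshold without passing (FDR 0.0243 and 0.015). The macrophage sum ranged from 143 to 256 TPM at 8 months and from 226 to 626 TPM at 28 months, with 323 TPM in the second highest mouse. The neutrophil sum ranged from 2.74 to 8.49 TPM and from 12.1 to 249 TPM. Adgre1, the F4/80 antigen of macrophages, did not pass (0.15, FDR 0.567). The part of leukocyte number in the integrin levels was not tested. Leukocyte members took a median of 1.30% of the beta chain TPM at 8 months (range 1.12 to 1.68%) and 2.28% at 28 months (1.43 to 8.85%).

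**Figure D5:**
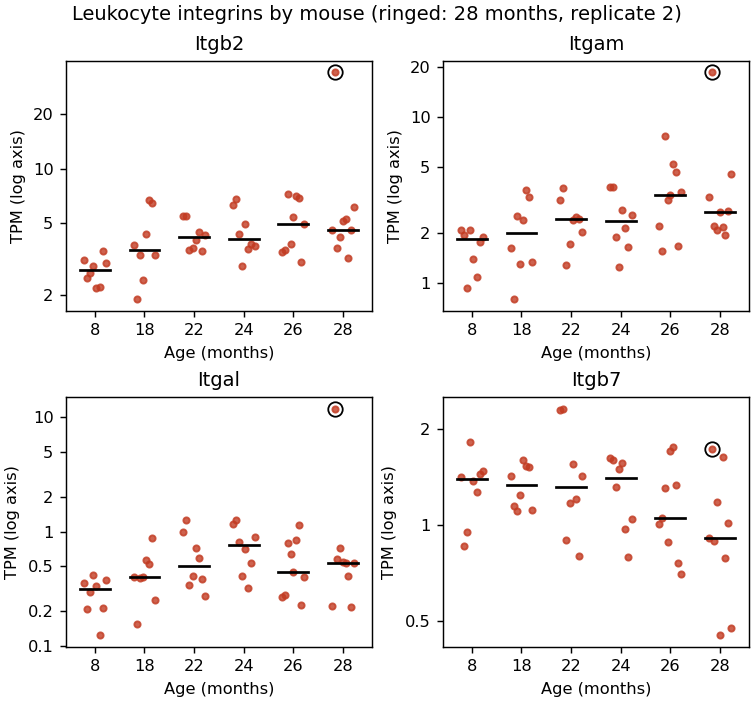
TPM of 4 leukocyte integrin genes in each of the 50 mice by age in months, on log axes whose range differs between panels. Points are mice, black lines are medians, and rings mark replicate 2 of 28 months. That mouse has 34.1 TPM of Itgb2, 18.4 TPM of Itgam and 11.9 TPM of Itgal, each the highest of all mice.

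Promoter windows bear on whether called genes share a sequence feature. The RefSeq-derived table for GRCm38 held a window for 19 of the 27 genes, and for 4 of the 7 called between 28 and 8 months: Itgam, which rose, and Itga11, Itgb5 and Lamb1, which fell. The 250 bases before the transcript start nearest to the gene's start in GENCODE are shown for these 4, 5′ to 3′ on the gene's strand. Capitals mark GAGGAA, the purine core that ETS factors such as PU.1 of myeloid cells bind, or its reverse complement TTCCTC. The windows lie at chr7:128062390-128062639 (Itgam), chr9:62677605-62677854 (Itga11), chr16:33829415-33829664 (Itgb5) and chr12:31265043-31265292 (Lamb1), all on the plus strand. Those of Itga11 and Lamb1 belong to RefSeq starts 29 and 59 bases inside the start in GENCODE.
Itgam: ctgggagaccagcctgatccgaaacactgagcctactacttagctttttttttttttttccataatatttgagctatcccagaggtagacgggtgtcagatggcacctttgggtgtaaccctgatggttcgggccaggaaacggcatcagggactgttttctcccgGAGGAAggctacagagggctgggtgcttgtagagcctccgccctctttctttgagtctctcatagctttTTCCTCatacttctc
Itga11: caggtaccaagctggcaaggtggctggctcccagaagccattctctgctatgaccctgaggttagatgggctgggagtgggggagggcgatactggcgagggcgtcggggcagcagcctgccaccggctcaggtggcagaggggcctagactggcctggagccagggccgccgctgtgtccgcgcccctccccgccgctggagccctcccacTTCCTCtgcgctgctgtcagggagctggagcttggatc
Itgb5: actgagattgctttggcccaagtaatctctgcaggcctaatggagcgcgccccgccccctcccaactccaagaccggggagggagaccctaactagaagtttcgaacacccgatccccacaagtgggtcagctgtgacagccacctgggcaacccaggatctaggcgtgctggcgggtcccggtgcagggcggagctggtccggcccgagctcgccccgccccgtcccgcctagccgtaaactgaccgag
Lamb1: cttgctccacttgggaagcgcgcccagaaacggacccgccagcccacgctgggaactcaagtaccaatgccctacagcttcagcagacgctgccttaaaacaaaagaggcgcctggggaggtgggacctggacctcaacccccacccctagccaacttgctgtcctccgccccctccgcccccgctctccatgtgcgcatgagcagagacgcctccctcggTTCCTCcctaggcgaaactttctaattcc

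The Itgam window held the core on both strands, 1 match each. The windows of Itga11 and Lamb1 held 1 match on the reverse strand, and that of Itgb5 held none. The core was present in 23.3% of all 32851 windows of this length in the table, in 22.3% of the windows of the genes tested and in 11 of the 19 windows of the described genes. Some of the 19 windows belong to starts far from the start in GENCODE: Itga9 (105002 bases), Lamb3 (94295 bases) and Lama2 (2816 bases). Those of Lamb3 and Lama2 are among the matches, and a difference between these shares was not tested. A match is a description of letters and no evidence of binding.

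Of the 17 genes of the integrin adhesion complex, which work with integrins at the adhesion site, 5 rose and 2 fell between 28 and 8 months. These 7 of 17 are a share near the background of 39.6% of all genes tested (21.0% higher and 18.7% lower), and the median log2 fold change of the list was -0.10. The largest changes belonged to the actin cross-linker Flnc (1.11 ± 0.19, FDR 9.61e-06), the focal adhesion protein Tns1 (0.75 ± 0.15, FDR 8.76e-05) and Itgb1bp2 (-0.57 ± 0.15, FDR 0.00119), the muscle chaperone melusin that binds the tail of the beta1 chain. Tln1, Tln2 and Pxn were the other genes that rose, and Ilk, which binds the beta1 tail, fell. These 4 were named after their values were seen, as were Sspn, Cd151, Dag1 and Skap2 among the lists that follow. Without replicate 2 of 28 months the counts were also 5 and 2. Flnc ranged from 74.9 to 714 TPM over the 50 mice, with medians of 163 TPM at 8 months and 349 TPM at 28 months.

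Of the 10 basement membrane and laminin receptor genes, 1 rose and 5 fell (background 21.0% higher and 18.7% lower), with a median log2 fold change of -0.41 beside 0.01 over all genes tested. The largest were decreases of Hspg2 (-0.71 ± 0.16, FDR 0.000298), which encodes perlecan, and of the nidogens Nid1 (-0.58 ± 0.13, FDR 0.000277) and Nid2 (-0.57 ± 0.15, FDR 0.00132), which link laminin to collagen IV. Nid1 had medians of 48.2 TPM at 8 months and 31.8 TPM at 28 months. Sspn and Cd151, a tetraspanin that binds laminin-binding integrins, also fell, and Dag1, the dystroglycan receptor of fibre laminin, rose by 0.31 ± 0.09 (FDR 0.00259). Without replicate 2 of 28 months none of the 10 rose and 6 fell.

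Of the 8 ligands and activators of leukocyte integrins, 4 rose and none fell (background 21.0% higher and 18.7% lower), with a median of 0.52 beside 0.01 over all genes tested. The activator Fermt3 changed by 0.96 ± 0.29 (FDR 0.00513), and the endothelial ligands Icam1 and Vcam1 by 0.83 ± 0.19 (FDR 0.000275) and 0.64 ± 0.18 (FDR 0.00206). The fourth was Skap2 (0.56 ± 0.14, FDR 0.000667). Without replicate 2 of 28 months 3 rose.

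The 11 rows below 1 TPM in 8 mice comprised Itgal and the second Itgam identifier, described above, and 9 more. Their highest TPM in any mouse was 0.854 for Itga10 and 0.462 for Itga2, both collagen receptors, 1.13 for Itgb8, 1.87 for Itgax, 0.569 for Itgad, 0.379 for Itgae, 1.07 for Lama3, 1.65 for Lamc3 and 0.0615 for Lama1, the embryonic alpha chain. The highest values of Itgax and Itgae were those of replicate 2 of 28 months. Itgad, Itgae and Lama1 did not pass the count filter. Of the other 6, the FDR at 28 against 8 months lay between 0.0946 and 0.888. Of all 35 rows tested 9 were called, with both Itgam identifiers, which share reads, among them. Depth limits what could be seen in these genes, with median counts of 12 for Itgax, 12.5 for Itga2 and 28 for Lama3 per library.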

How the data were processed

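RNA of gastrocnemius muscle was sequenced from 50 mice, 1 library per mouse, after polyA selection with a stranded paired-end kit. The authors trimmed reads with Cutadapt 1.9.1 and assigned them with kallisto 0.43.1 to protein-coding transcripts of GRCm38 (Ensembl), dividing reads that match several transcripts evenly and summing transcripts to genes. The deposited tables hold whole-number counts per gene, not normalized, and TPM, which the authors scaled by transcript length, so that TPM levels depend on the transcript models. Total counts per library lay between 13607229 and 21267375 (median 16521368). Groups are the 6 ages in the labels.

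Counts of genes that reached 1 CPM in 8 or more libraries entered 1 edgeR 4.0.16 fit over all ages (R 4.3.3, TMM scaling, quasi-likelihood F test). FDR is the Benjamini-Hochberg adjusted p over all 12586 genes tested, and a gene was called at FDR below 0.01. Errors are standard errors of the log2 fold change. The 7 comparisons were all made in this fit. Alternatives were DESeq2 1.42.0, upper-quartile scaling, no count filter, limma 3.58.1 on log2(TPM + 1) and log2(TPM + 0.1), a fit of only the ages compared, FDR below 0.05, a block for the replicate number, and leaving out single mice in turn. Counting all 35 rows tested was added after seeing the data. The procedure was tested on simulated counts.

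All genes of both families that reached 1 TPM in 8 or more mice are described, except 1 that is counted but not reported here, those below with their highest TPM, and of each pathway list the 3 called genes with the largest change. The genes and lists were chosen with earlier results of these data known. No library was a copy of another of the same age (184 pairs), and libraries of different ages were not compared in this way. Gene positions are from GENCODE vM21 and promoter sequences from RefSeq, both on GRCm38.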

Additional observations from a re-analysis of the deposited data

Results flagged for a closer look

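Values far from the other mice of their age were sought in each of 26 genes at each of the 6 ages by the ratio of the gap to the range (Dixon). Chance flags about 1 in 20 groups, which is 7.8 of the 156 groups, and 13 were found. Replicate 2 of 28 months gave 4 of them, with 34.1 TPM of Itgb2 (nearest mouse 6.15), 18.4 TPM of Itgam (nearest 4.5), 10.7 TPM of Itga4 (nearest 3.86) and 264 TPM of Itgb1 (nearest 183). At the same age replicate 6 had 1.98 TPM of Itga2b (nearest 1.03), replicate 8 had 9.9 TPM of Itgb4 (nearest 5.56) and replicate 4 had 17.7 TPM of Lama4 (nearest 12.9). At 18 months replicate 2 was low for Itga1 with 1.66 TPM (nearest 3.54) and for Lamc1 with 16.7 TPM (nearest 27.2), and replicate 6 was low for Itgb4 with 2.27 TPM (nearest 3.78). Itgb4 was also high in replicate 8 of 8 months, with 11.7 TPM (nearest 5.94). Itgb3 had 2.49 TPM in replicate 2 of 24 months (nearest 0.869), and Itga5 had 6.73 TPM in replicate 6 of 26 months (nearest 4.73).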

How the results depend on the processing

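The count of called genes between 28 and 8 months was 7. It was 3 and 4 with limma on log2(TPM + 1) and log2(TPM + 0.1), 4 when only the ages compared were fitted and 13 at FDR below 0.05, and it lay between 6 and 10 with 1 mouse left out. Of all genes tested, the limma fits called 4512 and 4464 of 12452, and the fit of only the ages compared called 3396 of 12075. Between 26 and 8 months the count of 3 became 1 with limma at either pseudocount, 5 with only the ages compared and 7 at FDR below 0.05, and lay between 1 and 4 with 1 mouse left out. Here limma called 1697 and 1708 of all 12452 genes tested, and the fit of only these ages 1645 of 12063. Between 28 and 22 months the count of 4 became 2 with only the ages compared and 9 at FDR below 0.05, and lay between 2 and 5 with 1 mouse left out. With only these ages 1859 of all 12064 genes tested were called. Over all genes, no count was made at FDR below 0.05. With the replicate number as a block the counts were 9, 2 and 2 in these comparisons, beside 4954, 2374 and 3451 of all 12586 genes tested. In that fit Itga2b (0.78, FDR 0.0055), Itgb6 (-0.78, FDR 0.00639) and Lama5 (0.41, FDR 0.00797) also passed between 28 and 8 months, whereas Lamc1 (FDR 0.0203), Itga6 between 26 and 8 months (FDR 0.0118), and Itga5 and Itgb7 between 28 and 22 months (FDR 0.0101 and 0.014) did not. The numbers do not mark shared mice, and the labels do not say whether they mark batches. Over 121 pairs of same-numbered mice of different ages the correlation of deviations had a median of 0.0513 (range -0.554 to 0.380). It exceeded 0.1 in 47 pairs, and pairs with different numbers were not compared in this way. The counts of 0 in the other comparisons stayed 0 in every alternative run. Itga7 and Itgb2 passed between 28 and 8 months in every alternative and with any 1 mouse left out. Lamc1 did not pass without a count filter, in either limma fit, with only the ages compared or with the block (highest FDR 0.191). Itgb5 and Lamb1 were not called in either limma fit (highest FDR 0.0358), Itga11 with only the ages compared (FDR 0.0294), and Itgam with limma on log2(TPM + 1) or with only the ages compared (FDR 0.0117 and 0.0138). Itgb7 passed at this contrast with upper-quartile scaling (-0.61, FDR 0.00922). Between 26 and 8 months Itga6 and Lama4 were not called in either limma fit (FDR 0.0198 to 0.0587). Between 28 and 22 months Itga5 was not called with upper-quartile scaling or with only the ages compared (FDR 0.0151 and 0.0109), and Itgb7 without a count filter, in either limma fit or with only the ages compared (FDR 0.0133 to 0.0537). The sign of small, uncalled differences between 28 and 8 months turned for Itga1 (0.00 on log2(TPM + 0.1)), Itga4 (-0.07 with upper-quartile scaling, -0.00 on log2(TPM + 0.1) and with only the ages compared, -0.08 with the block) and Itgav (0.07 in both limma fits). With 1 mouse left out the ranges were -0.19 to 0.01 for Itga1, -0.30 to 0.10 for Itga4, -0.02 to 0.23 for Itga8 and -0.45 to 0.07 for Itgb4. Upper-quartile scaling moved the share of higher genes among all calls from 58.3 to 43.4% between 28 and 22 months and from 52.9 to 44.9% between 28 and 8 months. The cause of these changes was not tested.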
